A study of Mus musculus with 6 samples.

Results

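The genes described here encode inhibitors of cyclin-dependent kinases (CDKs), some of them known for keeping haematopoietic stem cells out of the cell cycle. They are Cdkn1a, Cdkn1b and Cdkn1c of the Cip/Kip family and Cdkn2a, Cdkn2b, Cdkn2c and Cdkn2d of the Ink4 family. Their members were all probe sets that the platform table assigns to exactly 1 of these 7 symbols. There were 9 such probe sets among 45101 on the array, 5 for the Cip/Kip genes and 4 for the Ink4 genes; the 7 genes are among 18194 with such a probe set. Expression was measured on 6 Affymetrix arrays hybridised with RNA from stem cells of mouse bone marrow, 3 from mice labelled Irgm1-/- (also written Lrg-47-/- in the labels) and 3 from wild-type mice. Irgm1 encodes an interferon-induced GTPase, and the comparison asks how transcripts differ in stem cells of animals without it. All mice were C57BL/6, 8 to 12 weeks old and free of specific pathogens, with no treatment named. Cells were sorted as the side population of the DNA dye Hoechst, together with staining of lineage antigens, c-kit and Sca-1. Which part of Irgm1 was deleted is not stated in the labels, nor whether animals were pooled or the arrays of a group came from separate animals, so p-values measure the spread between these arrays, which may be technical.

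CDK inhibitors act at the step where a resting cell commits to division. Ink4 proteins bind CDK4 and CDK6 and keep them from their D-type cyclins, whereas Cip/Kip proteins bind assembled cyclin-CDK complexes, mainly those of CDK2, so that the retinoblastoma family stays active and E2F target genes stay off. In blood stem cells Cdkn1c and Cdkn1a are known for their part in quiescence, Cdkn1b for limiting the divisions of progenitors, and Cdkn2a for its silencing by Polycomb proteins in young animals. Much of the control of these proteins, of p27Kip1 above all, is by protein turnover, which an array of transcripts does not measure.

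All values are expression values on the log2 scale as the authors deposited them, and a difference is the mean of the arrays labelled Irgm1-/- minus that of the wild-type arrays. The array medians lay between 3.67 and 3.73. The highest control probe set for bacterial transcripts, taken as background, lay between 3.00 and 3.18. The Irgm1 probe set read 7.68, 8.58 and 7.84 on the arrays labelled Irgm1-/- and 8.39, 8.57 and 8.36 in wild type, so it did not separate the groups and the arrays are called by their labels. All 10 stem cell markers with a probe set, among them Kit and Procr, had group means above background in either group. The mean of 11 markers of T and NK cells was 5.57, 5.35 and 7.09 on the arrays labelled Irgm1-/- and 3.77 to 4.09 in wild type, with 9 and 7 of the 11 above background by their group means and Cd4 and Ncr1 at or below it on every array. The mean of 6 megakaryocyte markers was 7.57 to 7.77 and 6.43 to 6.60. Limma called 4 of 7 tested T and NK cell markers and 2 of 6 megakaryocyte markers higher, 1 of 2 stromal markers lower, and none of the tested markers of stem cells (10, median -0.35), B cells (2), erythroid cells (2) or monocytes and neutrophils (4). These counts moved with single arrays. The T and NK cell count was 1 without any wild-type array and 2 without replicate 1 labelled Irgm1-/-, or when dim probe sets were kept. The megakaryocyte count was 0 without replicate 1 labelled Irgm1-/- or wild-type replicate 1 or 2, 1 without replicate 2 labelled Irgm1-/-, with weaker filters or with the replicate block, and 5 with array weights. The stromal count was 0 without wild-type replicate 2. The stem cell list and the monocyte and neutrophil list each had 1 lower gene with array weights or a filter at the 70th percentile, as the latter list had with the actin covariate. Of the markers called higher, Gp1bb read 2.93, 3.06 and 3.44 in wild type and Gzmb 3.87, 3.00 and 3.64, below or near the array medians. Both were tested only because they were high on the arrays labelled Irgm1-/-. The actin control read 2.81 to 3.56 higher at its 3' end than at its 5' end on the arrays labelled Irgm1-/- and 2.57 to 3.16 higher in wild type. For the Gapdh control these values were 2.56 to 2.94 and 2.72 to 3.08, and the order of the arrays differed, since wild-type replicate 3 had the smallest value for actin and the largest for Gapdh. The part of these markers in the values of the inhibitors was not tested; with the actin gap as a covariate, limma likewise called 0 inhibitors. Fewer cells of a type and less RNA per cell cannot be told apart in such bulk RNA.

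None of the 6 tested CDK inhibitor genes passed the test. Of the 9 probe sets 7, for 6 genes, lay above the median of their array on at least 3 of the 6 arrays and were tested, and limma called 0 of the 7 at adjusted p under 0.05, with 2 of 7 at an unadjusted p under 0.05. Over all 22580 tested probe sets 1.39% were called (0.664% higher and 0.722% lower) and 16.4% had an unadjusted p under 0.05. The directions were mixed within either family: Cdkn1c and Cdkn2d had lower means on the arrays labelled Irgm1-/-, Cdkn1b, Cdkn2b and Cdkn2c had higher means, and the 2 probe sets of Cdkn1a had opposite signs. The groups did not overlap for 3 of the 7, Cdkn1c, Cdkn2d and Cdkn2b, against 22.6% of all tested probe sets (11.5% higher and 11% lower). The median difference of the 7 was 0.24, which is the value of Cdkn2b, a probe set near the array median. That of all tested probe sets was 0.01.

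**Figure D1:**
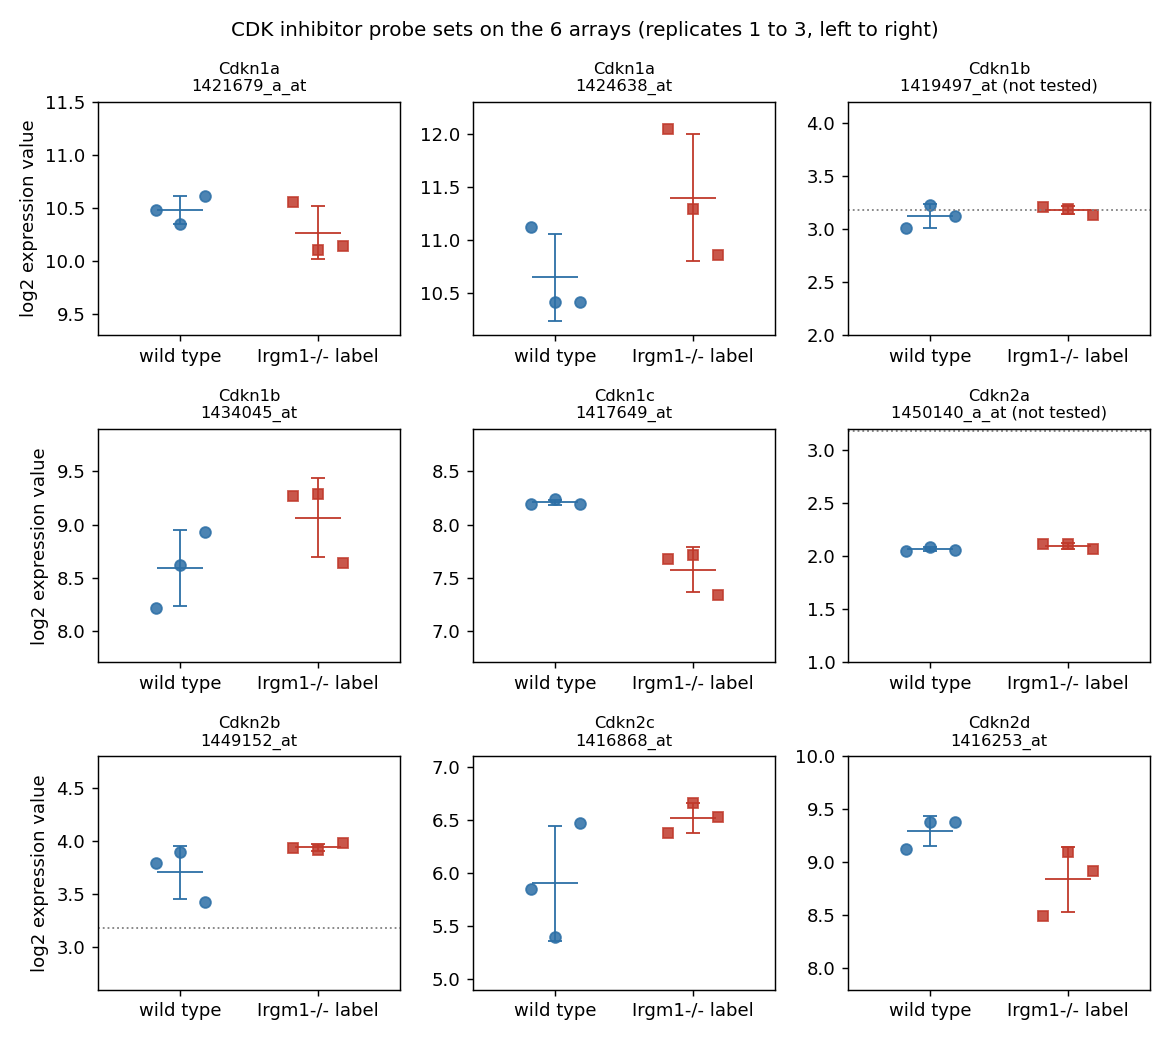
Log2 expression value (vertical axis, a range of equal width in each panel) of the 9 CDK inhibitor probe sets on each array, with circles for wild type, squares for the arrays labelled Irgm1-/-, and horizontal bars for the mean ± SD of 3 arrays. The dotted line, within the ranges of Cdkn1b 1419497_at, Cdkn2a and Cdkn2b, is the highest bacterial control value, 3.18. Cdkn1c shows 3 wild-type arrays between 8.19 and 8.24 above all 3 others, which reach at most 7.71.

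Cdkn1c, which encodes p57Kip2, an imprinted inhibitor expressed from the maternal copy, had the smallest p of the members. It read 7.68, 7.71 and 7.33 on the arrays labelled Irgm1-/- and 8.20, 8.24 and 8.19 in wild type. Every array labelled Irgm1-/- lay below every wild-type array, with 0.48 between the nearest arrays, and the wild-type values were close together (SD 0.02 against 0.21, n = 3 each). The difference was -0.63 (SE 0.17, limma adjusted p = 0.143), a ratio of 0.644 with a 95% interval from 0.487 to 0.852. The unadjusted p was 0.00708, rank 1117 of the 22580 tested. Over the alternative settings the adjusted p ranged from 0.0769, with array weights, to 0.313.

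Cdkn1a encodes p21Cip1, the inhibitor that p53 induces after DNA damage, and has 2 probe sets, neither of which passed the test. The probe set 1424638_at read 12.04, 11.29 and 10.86 on the arrays labelled Irgm1-/- and 11.12, 10.41 and 10.41 in wild type. Its groups overlapped, since wild-type replicate 1 lay above replicate 3 of the other group. The difference was 0.75 (SE 0.32, limma adjusted p = 0.309), with a 95% interval of -0.01 to 1.51. The probe set 1421679_a_at read 10.56, 10.11 and 10.14 on the arrays labelled Irgm1-/- and 10.48, 10.35 and 10.61 in wild type. These groups overlapped as well, and the difference was -0.21 (SE 0.17, adjusted p = 0.569), with an interval of -0.60 to 0.17. The difference of 1424638_at was 0.43 without replicate 1 labelled Irgm1-/- and 1.02 without replicate 3, and the adjusted p ranged from 0.146 to 0.599 over the alternatives.

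The Cdkn1a probe sets can also be compared within each array, where array-wide scaling cancels. The value of 1424638_at minus that of 1421679_a_at was 1.48, 1.19 and 0.72 on the arrays labelled Irgm1-/- and 0.64, 0.06 and -0.20 in wild type. The gap was thus wider on each array labelled Irgm1-/- than on any wild-type array. The means were 1.13 ± 0.39 and 0.17 ± 0.43 (SD, n = 3 each), a difference of 0.96. An exact 2-sided permutation test gave p = 0.1, the smallest p that 3 arrays against 3 allow. Any groups of 3 that do not overlap give this p, so the test adds nothing to the absence of overlap. This comparison was chosen after the values were seen. Among 13614 pairs of tested probe sets of the same gene, 17.7% had gaps that did not overlap between the groups, and 1.98% had this together with a difference at least as large as that of Cdkn1a.

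**Figure D2:**
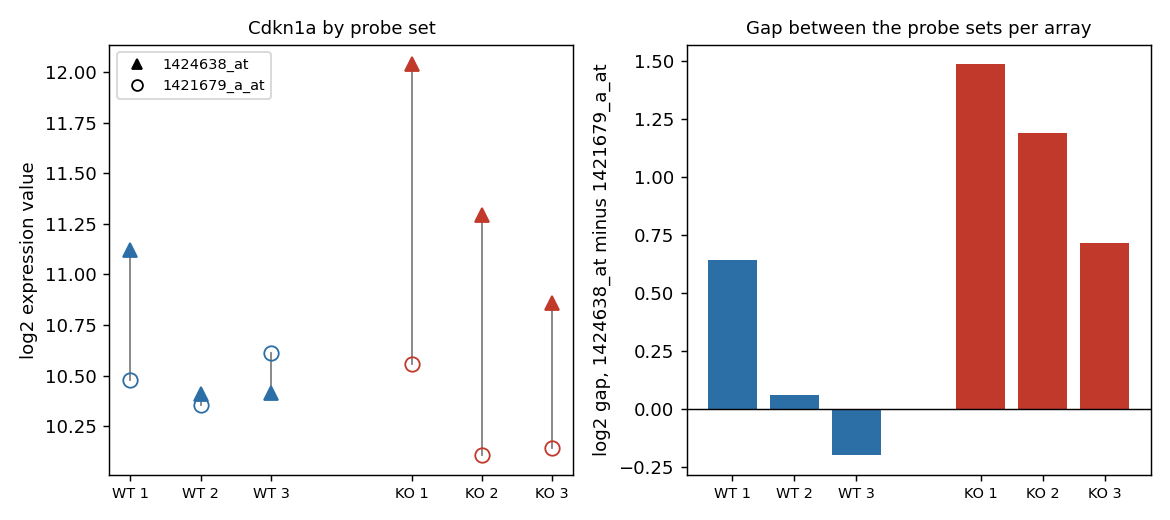
Left, log2 expression value of the 2 Cdkn1a probe sets on each array, triangles for 1424638_at and open circles for 1421679_a_at, joined by a line; right, the gap between them (bars from 0). WT marks wild type and KO the label Irgm1-/-. The gaps run from 0.72 to 1.48 on the arrays labelled Irgm1-/- and from -0.20 to 0.64 in wild type.

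RefSeq annotates 2 transcription starts for Cdkn1a, 2790 bases apart, and the sequence before each is shown as a description of the gene. Neither start is tied here to a probe set or to the gap between the probe sets. Which transcripts each probe set detects was not tested, and the probe sequences were not used here. The windows are the 250 bases before each start on the plus strand of build GRCm38.p6, chr17:29090729-29090978 for the upstream start and chr17:29093519-29093768 for the downstream start. Capitals mark the GC box GGGCGG, searched on both strands.
Cdkn1a upstream start: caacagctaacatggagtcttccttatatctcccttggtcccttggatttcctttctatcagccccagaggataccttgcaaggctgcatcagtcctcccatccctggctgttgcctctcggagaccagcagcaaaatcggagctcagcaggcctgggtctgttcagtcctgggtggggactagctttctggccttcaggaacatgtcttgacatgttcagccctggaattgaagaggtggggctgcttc
Cdkn1a downstream start: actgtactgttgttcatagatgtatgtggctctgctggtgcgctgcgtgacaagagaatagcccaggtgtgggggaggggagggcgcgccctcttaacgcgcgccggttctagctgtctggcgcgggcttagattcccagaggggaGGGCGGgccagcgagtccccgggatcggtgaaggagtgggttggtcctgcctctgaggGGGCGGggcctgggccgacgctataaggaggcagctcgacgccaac
The downstream window holds 2 GC boxes and 64.8% G and C bases, and the upstream window holds 0 and 54%. Of 32851 windows of that length before annotated starts, 32.7% hold a GC box. The sequence table covers 6 of the 7 genes in 9 windows, of which 5 hold a GC box, 2 a CCAAT box (CCAAT, 33.8% of all windows) and 0 a TATA box (TATAAA, 12.4%). The letters TTTCGCG, a core bound by E2F factors, occur in 0.703% of all windows and in 1 of the 9, before the downstream of 2 starts of Cdkn2c. These matches describe the letters only.

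Cdkn1b encodes p27Kip1, which restrains CDK2 in resting cells. Its probe set 1434045_at read 9.27, 9.28 and 8.63 on the arrays labelled Irgm1-/- and 8.22, 8.61 and 8.93 in wild type. The groups overlapped, and replicate 3 labelled Irgm1-/- lay within the wild-type range. The difference was 0.48 (SE 0.26, adjusted p = 0.408), with a 95% interval of -0.12 to 1.07, and it was 0.29 without wild-type replicate 1 and 0.69 without replicate 3 labelled Irgm1-/-. The other probe set, 1419497_at, lay between 3.01 and 3.23 on the 6 arrays, at the level of the highest bacterial controls, and was not tested. It therefore gives no second reading of Cdkn1b.

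The Ink4 genes divided between detected and dim. Cdkn2c encodes p18Ink4c, whose loss in mice is known to expand the stem cell pool. It read 6.37, 6.66 and 6.52 on the arrays labelled Irgm1-/- and 5.84, 5.39 and 6.47 in wild type. Only wild-type replicate 3 reached the range of the other group, and the wild-type spread was the larger (SD 0.54 against 0.14, n = 3 each). The difference was 0.61 (SE 0.28, adjusted p = 0.331), with a 95% interval of -0.04 to 1.27. With wild-type replicate 3 left out it was 0.90 (SE 0.22, adjusted p = 0.155, range over the alternatives 0.101 to 0.578), and with replicate 2 left out 0.36.

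Cdkn2d encodes p19Ink4d, an inhibitor of CDK4 and CDK6 that is widely expressed in blood cells. It read 8.50, 9.10 and 8.92 on the arrays labelled Irgm1-/- and 9.13, 9.38 and 9.38 in wild type. The arrays labelled Irgm1-/- were all lower, but only 0.03 separated replicate 2 of that group from wild-type replicate 1. The difference was -0.46 (SE 0.20, adjusted p = 0.304), with a 95% interval of -0.91 to -0.000714, and it was -0.29 without replicate 1 labelled Irgm1-/-.

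Cdkn2b and Cdkn2a lie next to each other on chromosome 4 and encode p15Ink4b and, from Cdkn2a, p16Ink4a together with p19Arf, a regulator of p53 read in another frame. Cdkn2b read 3.94, 3.91 and 3.98 on the arrays labelled Irgm1-/- and 3.80, 3.89 and 3.43 in wild type. The values lay above the bacterial controls on all 6 arrays but near the array median. The difference was 0.24 (SE 0.14, adjusted p = 0.444), only 0.02 separated the groups, and without wild-type replicate 3 the difference was 0.10. Cdkn2a read 2.07 to 2.12 on the arrays labelled Irgm1-/- and 2.05 to 2.09 in wild type. Its 1 probe set lay below the highest bacterial control on every array, was not tested and was not well above background in either group.

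**Figure D3:**
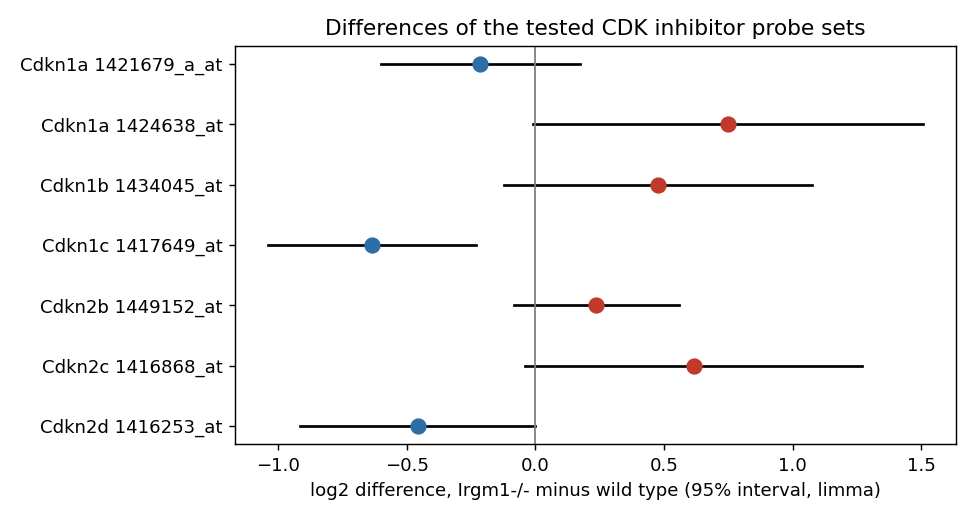
Log2 difference, arrays labelled Irgm1-/- minus wild type (horizontal axis), of the 7 tested CDK inhibitor probe sets, with 95% intervals from limma. Points right of 0 are red and left of 0 blue. The intervals of Cdkn1c (-1.04 to -0.23) and Cdkn2d (-0.91 to -0.000714) lie below 0, and the other 5 include 0.

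The precision was that of 3 arrays per group. The widest interval of a member, that of Cdkn1a 1424638_at, reached a 2.84-fold rise, and those of Cdkn1b and Cdkn2c reached 2.11-fold and 2.41-fold. For these genes values from no difference up to such rises therefore lay within the interval.

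For each gene with a tested probe set, by the brightest one, the genes whose values ran most like it across the 6 arrays, of 18529 tested probe sets with 1 symbol, were Gria3 and Efnb2 for Cdkn1c (Pearson r 0.997 and 0.995), Cep44 and Senp1 for Cdkn1a 1424638_at (0.996 and 0.992), and Acbd5 and Cops5 for Cdkn1b (0.998 and 0.990). They were Zmynd19 and Fkbp11 for Cdkn2c (0.992 and 0.980), Cep83os and Cpq for Cdkn2d (0.995 and 0.993) and Trim12a and Rps10 for Cdkn2b (0.998 and 0.997). These are the highest values of many over 6 arrays that share their processing, and they are given as a description. Gria3 and Efnb2, which encode a glutamate receptor subunit and an ephrin ligand, fell by 1.24 (adjusted p = 0.0453) and 1.02 (adjusted p = 0.0454), and were picked here for their likeness on the same arrays.

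The genes around the inhibitors were read from fixed lists, where the brightest of a gene's tested probe sets stood for it. By that measure limma called 2.03% of all 10374 tested genes (1.08% higher and 0.954% lower), and their median difference was 0.0032. The next list held 13 genes, for cyclins and CDKs that the inhibitors bind and for the CDK-activating kinase (Cdk7, Ccnh and Mnat1). Among them 1 rose, 0 fell and 12 did not pass, with a median of 0.33. The count of 1 was 2 without wild-type replicate 3 or when filtering at the 70th percentile, 3 with the actin covariate and 4 with array weights. Cyclin A2 (Ccna2), the partner of CDK2 in S phase, rose by 1.95 (SE 0.16, adjusted p = 0.00347). Cdk6, the main target of Ink4 proteins in blood cells, read 11.84, 11.62 and 11.62 on the arrays labelled Irgm1-/- and 10.44, 10.37 and 11.05 in wild type (difference 1.07, SE 0.20, adjusted p = 0.0529). Its groups did not overlap. Ccnh, a subunit of the CDK-activating kinase, differed by 0.63 (adjusted p = 0.0938) and cyclin E2 (Ccne2) by 1.23 (adjusted p = 0.138). The D-type cyclins, which Ink4 proteins displace, had differences of 0.15 for Ccnd1, -0.25 for Ccnd2 and -0.03 for Ccnd3, and were chosen after their values were seen.

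Among 12 tested pocket proteins and E2F factors 1 rose, 0 fell and 11 did not pass (median 0.22). E2f8, an E2F repressor that accumulates in S phase, rose by 1.40 (SE 0.25, adjusted p = 0.0462), and the list had 0 called genes when any 1 array other than wild-type replicate 3 was left out, with no filter or one at the 25th percentile, with quantile normalization or median centring, and with the replicate block. E2f2 differed by 0.73 (adjusted p = 0.121), Tfdp1 by 0.56 (adjusted p = 0.125) and E2f7 by 0.48 (adjusted p = 0.218), whereas Rb1, chosen after its value was seen, was at 0.02. Of 15 genes for the turnover of Cip/Kip proteins limma called 0, or 1 higher with array weights, with a median of 0.03. Those with the smallest p were Skp2, the ubiquitin ligase subunit that recognises p27Kip1, at 0.66 (adjusted p = 0.177), and its cofactor Cks1b at 0.78 (adjusted p = 0.205). Dtl, the adaptor that targets p21Cip1 during replication, was at 1.17 (adjusted p = 0.240), although limma called 1 of 4 further probe sets for it. Cul4b, a scaffold of the same ligase family, was at -0.58 (adjusted p = 0.282).

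The lists of p53 and its targets and of inputs to the inhibitors' transcription gave few calls. Trp53 itself had no probe set with 1 symbol and was not tested, so the first list does not measure p53. Of 18 tested genes in the list of p53 and its targets, 17 did not pass and 1 rose, with a median of -0.14. The gene that rose was Pmaip1, which encodes the cell death protein Noxa (1.48, SE 0.26, adjusted p = 0.0454), and the list had 0 called genes when any 1 array was left out, with each other filter tried, with quantile normalization or median centring, and with the replicate block. Btg2 (-0.67, adjusted p = 0.142), Zmat3 (0.82, adjusted p = 0.171) and Sesn1 (-0.30, adjusted p = 0.268) followed. Of the 18 differences 6 were positive. Of 15 Foxo and TGF-beta inputs, only some of which raise Cip/Kip and Ink4b transcription, limma called 0 (median -0.02), or 1 higher and 1 lower with array weights. Tgfbr3 was at 0.74 (adjusted p = 0.116), Tgfbr2 at -0.58 (adjusted p = 0.149), Smad3 at -0.53 (adjusted p = 0.185) and Foxo3, a factor needed for stem cell maintenance, at -0.43 (adjusted p = 0.259).

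Of 16 tested regulators of the Ink4 locus limma called 0 (median -0.08). The Polycomb methyltransferase Ezh2 was at 1.08 (adjusted p = 0.0894), its relative Ezh1 at -0.69 (adjusted p = 0.232), Bmi1, the Polycomb protein known for keeping Cdkn2a silent in stem cells, at -0.50 (adjusted p = 0.219), and Cbx7 at -0.60 (adjusted p = 0.296). The count of 0 became 1 higher with a filter at the 70th percentile, array weights or the actin covariate. Of the genes in the imprinted domain around Cdkn1c, 8 of 14 were tested, limma called 0, and 6 of the 8 had negative differences (median -0.13). The count of 0 became 1 lower with a filter at the 70th percentile, quantile normalization, array weights or the actin covariate. Cd81, a tetraspanin gene, had the smallest p of this list. It read 12.13, 12.46 and 12.47 on the arrays labelled Irgm1-/- and 13.00, 13.03 and 12.99 in wild type, with no overlap (difference -0.65, SE 0.12, adjusted p = 0.0529). Slc22a18, which is imprinted like Cdkn1c, was at -1.07 (SE 0.43, adjusted p = 0.277), Nap1l4 at -0.20 (adjusted p = 0.373) and Dhcr7 at 0.36 (adjusted p = 0.465).

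Other brakes on the cycle were likewise mostly not called. Of 8 other restrainers of CDKs limma called 0 (median 0.10), with Cables1 at -0.64 (adjusted p = 0.218), the CDK1 kinases Wee1 at -0.53 (adjusted p = 0.414) and Pkmyt1 at 0.61 (adjusted p = 0.425), and Cables2 at -0.35 (adjusted p = 0.647). Of 16 other genes tied to stem cell quiescence 1 fell, 0 rose and 15 did not pass (median -0.05). That gene was Ndn, an imprinted growth suppressor that binds p53 and E2F1, which fell by 2.95 (SE 0.27, adjusted p = 0.00533). Btg1, an antiproliferative gene, was at 0.39 (adjusted p = 0.203), Mycn at -0.50 (adjusted p = 0.286) and Hlf, a stem cell transcription factor, at -0.48 (adjusted p = 0.300).

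Proliferation genes stood beside these values with 8 of 19 tested genes higher, 0 lower and 11 not called (median 1.15). Their mean value was 9.58, 9.47 and 9.46 on the arrays labelled Irgm1-/- and 8.42, 8.37 and 8.58 in wild type, so the groups did not overlap. Mki67, the proliferation antigen, rose by 1.73 (SE 0.17, adjusted p = 0.00783), Tk1 by 1.70, Rrm2 by 1.79 and the helicase subunit Mcm5 by 1.15. The count of 8 was 6 without replicate 3 labelled Irgm1-/-, the array with the highest T cell markers, and 2 when replicate 1 or 2 of that group was left out. Leaving out wild-type replicate 3 gave 5, replicate 1 gave 1 and replicate 2 gave 0. The replicate block gave 3, as did keeping all dim probe sets or filtering at the 25th percentile, and array weights gave 13.

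**Figure D4:**
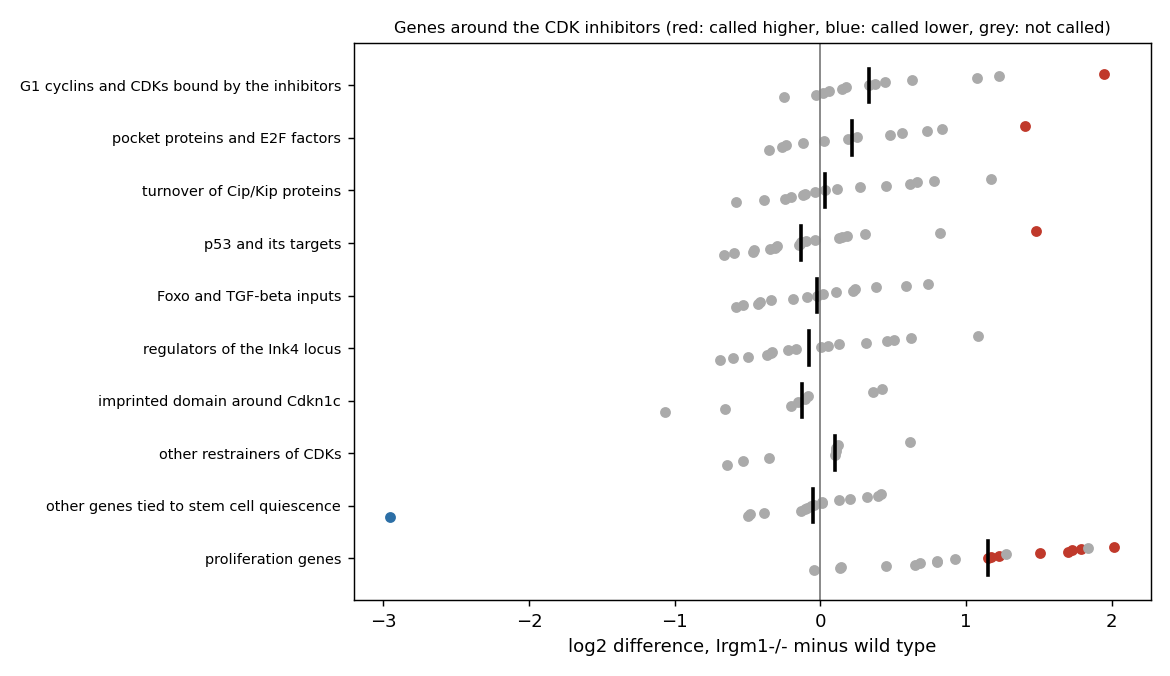
Log2 difference (horizontal axis) of each tested gene of 10 lists around the CDK inhibitors, red where limma called it higher, blue where lower and grey where not called, with a black bar at each list's median. Proliferation genes have a median of 1.15, and the other 9 lists have medians between -0.14 and 0.33.

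The member values kept their signs wherever they could be given. Over 16 alternatives 110 values were computed for the 7 tested probe sets, 110 had the sign of the reported value and 0 passed the threshold, the lowest adjusted p being 0.0769 for Cdkn1c with array weights. Other filters, variance models and the replicate block leave the difference itself unchanged, so no sign could change there. Nor could leaving out 1 array change the sign for Cdkn1c, Cdkn2d and Cdkn2b, whose groups do not overlap. With any 1 array left out, the difference of Cdkn1c lay between -0.70 and -0.51, that of Cdkn2d between -0.59 and -0.29 and that of Cdkn2c between 0.36 and 0.90.

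**Figure D5:**
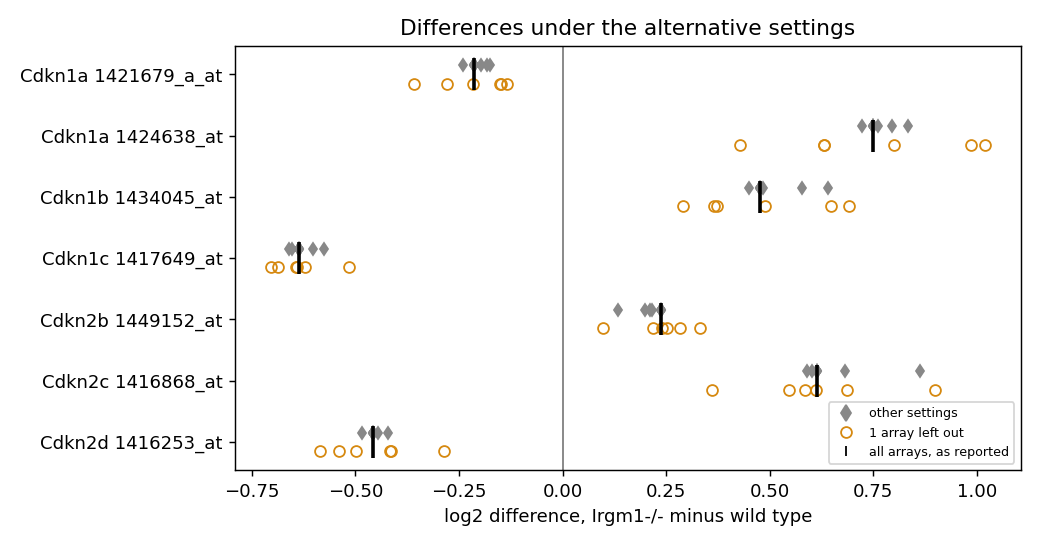
Log2 difference (horizontal axis) of the 7 tested probe sets with all arrays (black bar), with 1 array left out (open circles) and under other settings (grey diamonds). No point lies across 0 from its black bar, and those of Cdkn1c span -0.70 to -0.51.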

How the data were processed

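RNA was amplified linearly in 2 rounds before labelling, per the labels' protocols, which favours 3' ends. The authors deposited log2 expression values per probe set. The submitters' processing notes name GCRMA, which corrects background from probe sequence and scales between arrays. Its version is not given in the sources used here. That the scale is log2 was judged from the range of the values, so planned pseudocounts for linear values did not apply. Of 45101 probe sets, 34958 had 1 symbol in the platform table, 932 several and 9211 none, and only those with 1 symbol were named.

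The 3 arrays of each group were compared by lmFit and eBayes with an intensity trend (limma 3.58.1, R 4.3.3, 2-sided), on the 22580 probe sets above the array median on at least 3 of 6 arrays. P-values were adjusted by Benjamini and Hochberg over all of these, with a threshold of 0.05. The fit was tested on simulated data, drawn as independent normal values with the spread of each probe set and with 200 of 22580 probe sets changed. It called 39% of 2-fold changes and 81% of 4-fold changes. These shares depend on those settings and are not the power of the comparison made here. Of its calls there, 4% were unchanged probe sets. Named genes were every member probe set, up to 4 genes per list with the smallest p, and the 2 genes most like each member gene's brightest tested probe set. The D-type cyclins and Rb1 were added after their values were seen. The members and lists were chosen with earlier results of these data known. Alternatives changed the filter, scaling, variance model, array weights, replicate block and arrays used; the actin covariate and the test within Cdkn1a were added after seeing the data. Promoter windows are from RefSeq, build GRCm38.p6.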

Additional observations from a re-analysis of the deposited data

How the results depend on the processing

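The call of 0 CDK inhibitor probe sets held in all 16 alternatives. Other filters, variance models and the replicate block leave the differences themselves unchanged. The signs of the 7 tested probe sets held too, except that Cdkn2b and Cdkn2c were not tested with a filter at the 70th percentile. Their ranges with 1 array left out were -0.36 to -0.13 for Cdkn1a 1421679_a_at, 0.43 to 1.02 for Cdkn1a 1424638_at, 0.29 to 0.69 for Cdkn1b and 0.10 to 0.33 for Cdkn2b. The difference in the gap between the Cdkn1a probe sets ranged from 0.78 to 1.20. Counts of called probe sets moved far more. They were 150 higher and 163 lower as reported, 49 and 54 when dim probe sets were not removed, 62 and 64 when the filter was set at the 25th percentile, 401 and 463 with array weights, 252 and 263 with the actin gap as covariate, and 17 to 138 and 28 to 129 with 1 array left out. With the replicate number as a block they were 27 and 41. That block changed no call of a CDK inhibitor (Cdkn1c -0.63, limma adjusted p = 0.275). For Cdkn1a 1424638_at, highest on replicate 1 in either group, it lowered the SE from 0.32 to 0.16 (adjusted p = 0.174). Over all tested probe sets, same-numbered arrays did not deviate together (correlations -0.11, -0.02 and -0.28), with 0 of 6 arrays most like the array of their own number. Over the 10 lists 11 genes were higher and 1 lower. With no filter, a filter at the 25th percentile or the replicate block 4 were higher, with array weights 22 and 3 lower, with the actin gap 18 and 2 lower, with a filter at the 70th percentile or quantile normalization 2 were lower, and with 1 array left out 1 to 8 were higher and 1 lower. No scaling moved the median difference of all tested probe sets by over 0.03. The causes of these moves were not tested. Other filters changed the number of probe sets tested, and leaving out 1 array changed the number of arrays, but neither was examined by itself. The number of arrays and the closeness of Cdkn2b, Cdkn2a and the dim Cdkn1b probe set to background limit what can be seen.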
